A study of Mus musculus with 2 samples.

Results

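Collagen genes were taken as the protein-coding genes whose symbol has the form Col, number, a, number in GENCODE release M21 for mouse. This gave 44 genes of 21644 protein-coding genes on chromosomes 1 to 19 and X. Their chromatin was described in DNase-seq of the mouse embryonic facial prominences, the outgrowths from which the face forms. DNase-seq marks DNA that the nuclease DNase I can cut, as at promoters and enhancers in open chromatin. There was 1 group, healthy embryos of strain B6NCrl at embryonic day 11.5 with male and female embryos pooled, and it had 2 libraries, labelled biological replicates 1 and 2. The labels name separate biosamples for the libraries but the same donor, and no genotype change or treatment.

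With a single group there was no comparison of conditions, and no test over samples was possible. Values are therefore given in both libraries, and counts of collagen genes stand beside the same count over all protein-coding genes. Genes and peaks are not replicates.

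Collagens are secreted proteins whose chains wind around each other into a stiff helix. The fibrillar types assemble into the fibrils of skin, bone, tendon and loose mesenchyme, while the types of cartilage form thinner fibrils with their own surface chains. The basement membrane types form sheet-like networks under epithelia and around vessels and nerves. Much of the facial mesenchyme comes from the neural crest and later forms cartilage, bone and connective tissue.

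A peak is a 150 bp accessible site called in a single library, and its strength is the score that the authors deposited with it. Strength is a bounded whole number on a scale that differs between the libraries, with a median of 16 over the 209299 peaks of replicate 1 and 42 over the 219061 peaks of replicate 2. It is therefore given for each library and ranked only within it, by percentile. A promoter peak has its midpoint within 1 kb of a transcription start, and a distal peak lies farther from every start and is counted for the gene with the nearest one. A shared peak is a replicate 1 peak covered over at least 75 bp by a replicate 2 peak. There were 85950 shared peaks, of which 22998 were at promoters and 62952 were distal. The number of reads behind each library is unknown.

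Markers were read against the label of the tissue. Of 17 facial mesenchyme genes, 17 had a promoter peak in replicate 1, 17 in replicate 2 and 14 a shared one. The share of all protein-coding genes with a shared promoter peak was 64.2%. Facial ectoderm genes had a shared one in 6 of 10 cases and chondrocyte and bone genes in 6 of 11, neither above that share. Endothelial genes had a shared one in 3 of 7 cases, with 3 in replicate 1 and 6 in replicate 2. None of 6 erythroid genes had a shared promoter peak, but 2 had a promoter peak in replicate 1 and 3 in replicate 2, and 2 had a shared promoter hotspot. None of 5 liver genes had a shared one, and 1 had a promoter peak in replicate 1 and 0 in replicate 2. The cartilage matrix genes Acan and Matn3 had shared promoter peaks, and Matn1 and the bone gene Bglap had no promoter peak in either library. The tissue is a mixture, so that a weak peak in many cells and a strong peak in few cells cannot be told apart.

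Most collagen promoters were accessible in both libraries. A shared promoter peak was found at 34 of the 44 collagen genes (77.3%), against 64.2% of all protein-coding genes. In replicate 1 alone, 36 collagen genes had a promoter peak, against 67.3% of all genes, and in replicate 2 alone 40 had one, against 70.8%. Hotspots, the wider enriched regions that the authors called, were shared within 1 kb of a start at 35 collagen genes, against 66.3% of all genes. The excess over all genes was absent under stricter peak selection and under stricter matching. When each library was limited to its 50000 strongest peaks, 25 collagen genes (56.8%) had a shared promoter peak against 58.4% of all genes. When 90% of the peak had to overlap, 11 (25.0%) had one against 28.8%.

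By their median, collagen promoter peaks were weaker than those of all genes, although single ones ranked high. Over the genes with a promoter peak, the strongest had a median strength of 51 in replicate 1 and 89 in replicate 2 at collagen genes. The same medians over all genes were 85 and 121. In percentiles of all peaks of the library, the collagen medians were 88.0 and 87.5, and those over all genes were 96.3 and 96.0. Col5a1, at the percentiles 97.3 and 98.6, and Col16a1, at 97.8 and 98.2, were above the all-gene median in both libraries.

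The fibrillar class had accessible promoters throughout. All 8 fibrillar genes had a promoter peak in replicate 1, in replicate 2 and shared, and the median strength of their strongest promoter peak was 62 and 95 in replicates 1 and 2. In the basement membrane class 8 of 8 genes also had one, at median strengths of 41.5 and 78.5. In the cartilage class 5 of 7 genes did, and the medians over its genes with a peak were 41 and 73.5. With the 50000 strongest peaks alone, 8 fibrillar, 3 cartilage and 4 basement membrane genes had a shared promoter peak. With 90% of the peak overlapping, 2 fibrillar, 2 cartilage and 1 basement membrane gene had one, against 28.8% of all genes.

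**Figure D1:**
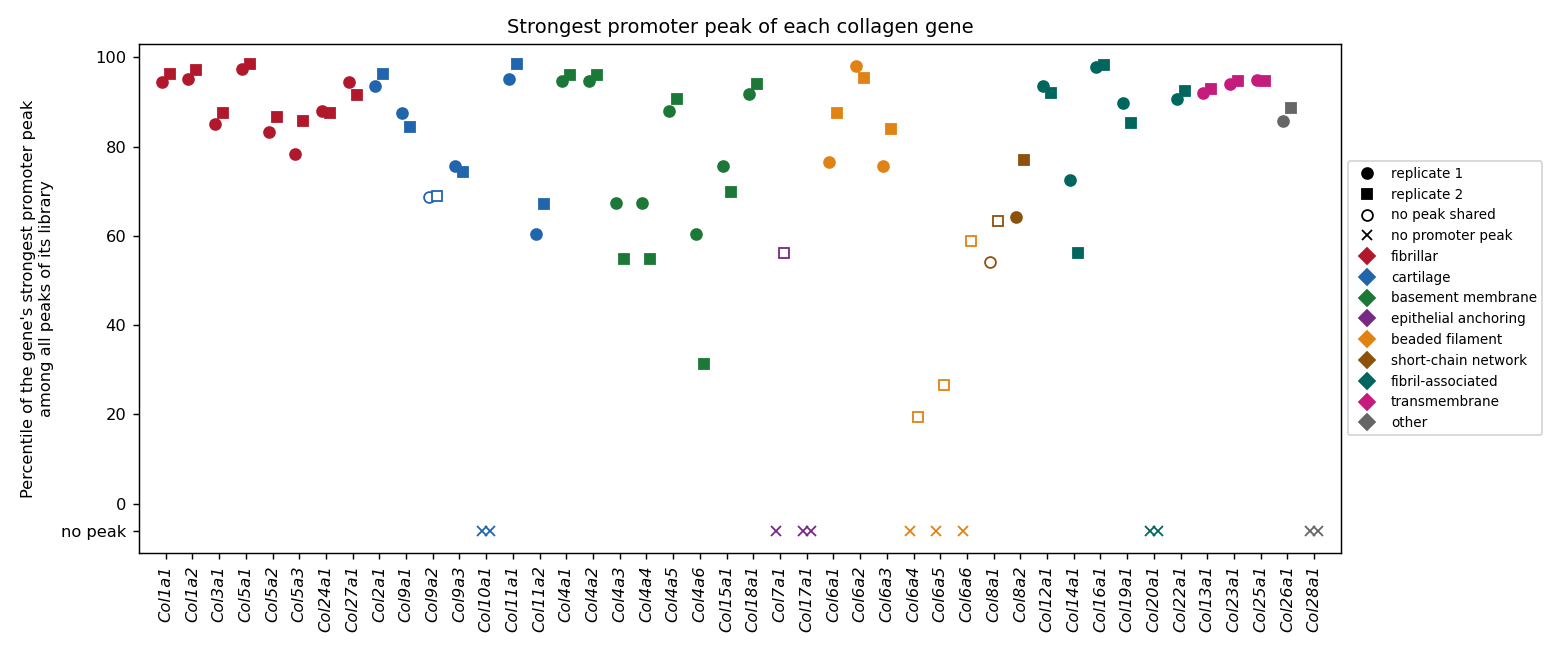
Each gene's strongest promoter peak is plotted as its percentile among all peaks of its library (vertical axis), with circles for replicate 1, squares for replicate 2, open symbols where no promoter peak was shared and crosses where a library had none. The fibrillar genes sit between the percentiles 78.4 and 98.6, whereas the cartilage and basement membrane genes with a shared peak reach down to 60.5 and 31.3.

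Col1a1 and Col1a2 encode the chains of collagen I, the main fibrillar collagen of bone, skin and tendon. Col1a1 (chromosome 11, 94936224 to 94953042, plus strand) had 2 shared promoter peaks. The peak over its start had a strength of 28 in replicate 1 and 66 in replicate 2. A stronger one lay 927 bp downstream in the first intron, at 73 and 122. The peak over the start is shown because it holds the sequence TATAAA, which begins at the annotated first base of the gene. The bases up to 30 past that start are printed on the plus strand of mm10, chr11:94936156-94936253, with TATAAA in capitals.
Col1a1 start peak: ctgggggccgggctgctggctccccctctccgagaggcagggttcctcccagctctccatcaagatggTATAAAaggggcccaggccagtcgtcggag

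Motif letters were searched on both strands, and a match is a description and not a bound site. TATAAA, the core of the TATA box, was in 4 of the 58 distinct shared promoter peaks of collagen genes (6.90%) and in 2.24% of all shared promoter peaks. GGGCGG, the core of the GC box, was in 20 of the 58 (34.5%) and in 46.9% of all. CCAAT was in 9 of the 58 (15.5%) and in 21.9% of all.

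Col1a2 (chromosome 6, plus strand) had its strongest promoter peak 98 bp past the start, at strengths of 77 and 127, and another in the first intron at 52 and 85. Col3a1, whose product assembles with collagen I in soft tissues, had 3 shared promoter peaks, with strengths of 20, 45 and 40 in replicate 1 and 39, 89 and 74 in replicate 2. The most upstream of them, 367 bp before the start, was the weakest in both libraries. It is shown because it holds 3 of the motifs searched. TATAAA is read here on the other strand, as TTTATA. A further match is GGAATG, a core of the sites of TEAD factors. The last is TGANTCA, the core of the sites of AP-1 factors, with N for any base. The sequence is the plus strand of mm10, chr1:45311096-45311245, with the matches in capitals.
Col3a1 upstream peak: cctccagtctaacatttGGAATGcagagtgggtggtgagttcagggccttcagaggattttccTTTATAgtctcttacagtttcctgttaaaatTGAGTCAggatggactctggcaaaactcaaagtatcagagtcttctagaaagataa

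Col5a1, Col5a2 and Col5a3 encode collagen V, which starts fibrils and sets their width. Col5a1 had the strongest fibrillar promoter peak, 134 bp upstream of the start, at 92 in replicate 1 and 134 in replicate 2. Col5a2 had 2 shared promoter peaks of near equal strength, at 42 and 87 and at 41 and 83. Col5a3 had 1, at 35 and 85, which was the lowest strength in replicate 1 and in replicate 2 of the strongest promoter peaks in this class. Col24a1, a minor fibrillar gene, reached 51 and 89, and Col27a1, a fibrillar gene known for its role in growth plate cartilage, reached 74 and 101. The Col5a1 peak is shown as the GC-rich example, with 78.7% G and C, 18 CpG dinucleotides and GGGCGG matches in capitals (plus strand, chr2:27886216-27886365, mm10).
Col5a1 promoter peak: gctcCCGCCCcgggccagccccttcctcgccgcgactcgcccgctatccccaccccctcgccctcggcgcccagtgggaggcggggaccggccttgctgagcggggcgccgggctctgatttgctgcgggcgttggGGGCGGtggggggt

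In the cartilage class, promoter peaks ranged from among the strongest of the collagen genes to none. Col11a1 encodes a chain of the thin collagen II and XI fibrils and is also made outside cartilage. Its strongest promoter peak, 129 bp upstream of the start, had strengths of 77 and 134, higher than that of Col2a1 in both libraries. Col2a1, the main collagen of cartilage, had one over its start at 69 and 122. Another, at 52 and 88, lay in the first intron, 686 bp past the nearest start. Col11a2 had a shared peak of 21 and 56, at the percentiles 60.5 and 67.2. The Col11a1 peak is printed from the plus strand of mm10, chr3:114030336-114030485, with GGGCGG and CCAAT (here as ATTGG) in capitals. Its 3 CpG dinucleotides contrast with the 18 of the Col5a1 peak.
Col11a1 promoter peak: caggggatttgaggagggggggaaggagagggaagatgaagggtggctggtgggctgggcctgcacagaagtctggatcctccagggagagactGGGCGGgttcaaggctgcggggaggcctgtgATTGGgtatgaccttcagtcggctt

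The collagen IX genes encode chains that sit on the surface of cartilage fibrils. Col9a1 has an upstream start, known for the long form of cartilage, and a downstream start, known for a shorter form in the eye. Neither library had a peak within 1 kb of the upstream start. The downstream start had a shared peak, at 50 and 82. Col9a3 had 2 shared promoter peaks, at 32 and 65 and at 23 and 61. Col9a2 had promoter peaks in both libraries, with strongest values of 26 and 58, but these overlapped by only 10 bp and were not counted as shared. Col10a1, which marks hypertrophic chondrocytes of bone-forming cartilage, had no promoter peak in replicate 1 or replicate 2.

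The basement membrane class had pairs of genes that share a promoter. Col4a1 and Col4a2 encode the collagen IV chains found in nearly every basement membrane. Their starts lie 21 bp apart on opposite strands of chromosome 8, and the same shared peak covered both, at strengths of 75 and 121. The bases from start to start are printed from the minus strand of mm10, chr8:11312805-11312826, with a GGGCGG match (as CCGCCC) in capitals. The annotated genes overlap here, so these bases lie in both genes and are not a stretch between them.
Col4a1 and Col4a2 starts: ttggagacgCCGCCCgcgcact

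Col4a3 and Col4a4 encode chains of kidney, lung and inner ear basement membranes. Their starts lie 127 bp apart, and they also shared a single peak, but a weak one at 25 and 45. The part of it from the start of Col4a4 toward that of Col4a3 is shown for contrast, from the plus strand of mm10, chr1:82586849-82586945. It has 64.9% G and C, and none of the motifs searched is in the peak. The start of Col4a3 lies past the end of the peak, so that of Col4a4 is the only start among the printed bases.
Col4a3 and Col4a4 starts: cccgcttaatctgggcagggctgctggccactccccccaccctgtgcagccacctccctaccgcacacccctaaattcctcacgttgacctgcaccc

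Col4a5 and Col4a6 lie head to head on X with closest starts 1309 bp apart, and each start had its own shared peak. That of Col4a5 had strengths of 51 and 98, and that of Col4a6, at 20 and 32, ranked lowest by mean percentile of the 34 collagen genes with a shared promoter peak. Col15a1 and Col18a1 encode collagens of the outer side of basement membranes. Col15a1 had a shared promoter peak at 30 and 59, at the first of its 3 annotated starts and at neither of the other two. Col18a1 has an upstream start, known for the short form of vessels and epithelia, and 2 downstream starts, known for longer forms abundant in liver. The upstream start had shared peaks at 61 and 111 and at 55 and 108, and the downstream starts had no promoter peak in either library.

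In the remaining classes, promoter peaks were present at some members and not at others. Col17a1, of the hemidesmosomes that hold the epidermis to its basement membrane, had no promoter peak in either library. Col7a1, of the anchoring fibrils below them, had peaks in replicate 2 only, up to 46. Of the collagen VI genes, which form beaded filaments around cells, Col6a1 (33 and 89), Col6a2 (97 and 118) and Col6a3 (32 and 81) had shared promoter peaks. Col6a4, Col6a5 and Col6a6, neighbours on chromosome 9, had promoter peaks in replicate 2 only, with strongest values of 27, 30 and 48.

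Of the short-chain genes, Col8a2 had a shared promoter peak at 23 and 42. Col8a1 had promoter peaks in both libraries that overlapped by 70 bp, just under the 75 bp that counted as shared. Among the fibril-associated genes, which encode chains on the surface of fibrils, 5 of 6 had a shared promoter peak. Col16a1 ranked first of the collagen genes by mean percentile, at 95 and 132. The shared peaks of Col12a1 (69 and 102), Col22a1 (58 and 104), Col19a1 (55 and 84) and Col14a1 (27 and 45) were weaker, and Col20a1 had no promoter peak in either library. The transmembrane genes Col13a1 (62 and 101), Col23a1 (71 and 114) and Col25a1 (76 and 114) had shared peaks. Col26a1 had one at 46 and 85, and Col28a1 had no promoter peak in either library.

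Of the 10 collagen genes without a shared promoter peak, Col10a1, Col17a1, Col20a1 and Col28a1 had none in either library, and Col6a4, Col6a5, Col6a6 and Col7a1 had them in replicate 2 only. Col8a1 and Col9a2 had them in both libraries, without a match. More collagen genes had a promoter peak in replicate 2 than in replicate 1. Replicate 2 also had more peaks, and the part of this in the 4 genes found only there was not tested.

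Collagen promoters were poorer in CpG dinucleotides than those of most genes. The CpG observed/expected ratio over 1000 bp around the start, taken at the start where it is highest, had a median of 0.453 over the collagen genes and 0.61 over all genes. Below a ratio of 0.6 were 31 collagen genes, and 21 of these (67.7%) had a shared promoter peak, against 31.3% of the 10602 protein-coding genes below it. At or above 0.6, 13 of 13 collagen genes had one, against 95.8% of 11042. The collagen share stood above that of all genes mainly among CpG-poor promoters.

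By class, a shared promoter peak was present at 6 of 6 CpG-poor fibrillar genes, 4 of 6 CpG-poor cartilage genes and 5 of 5 CpG-poor basement membrane genes. Col3a1, with a ratio of 0.178, and Col9a1, with 0.182, were among the lowest with a shared peak. The lowest ratios of all, 0.0844 at Col28a1 and 0.0855 at Col20a1, were at genes without a promoter peak. The beaded filament class was CpG-poor at all 6 genes, with ratios of 0.216 at Col6a1 and 0.455 at Col6a6 as its ends, and 3 of 6 had a shared promoter peak.

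**Figure D2:**
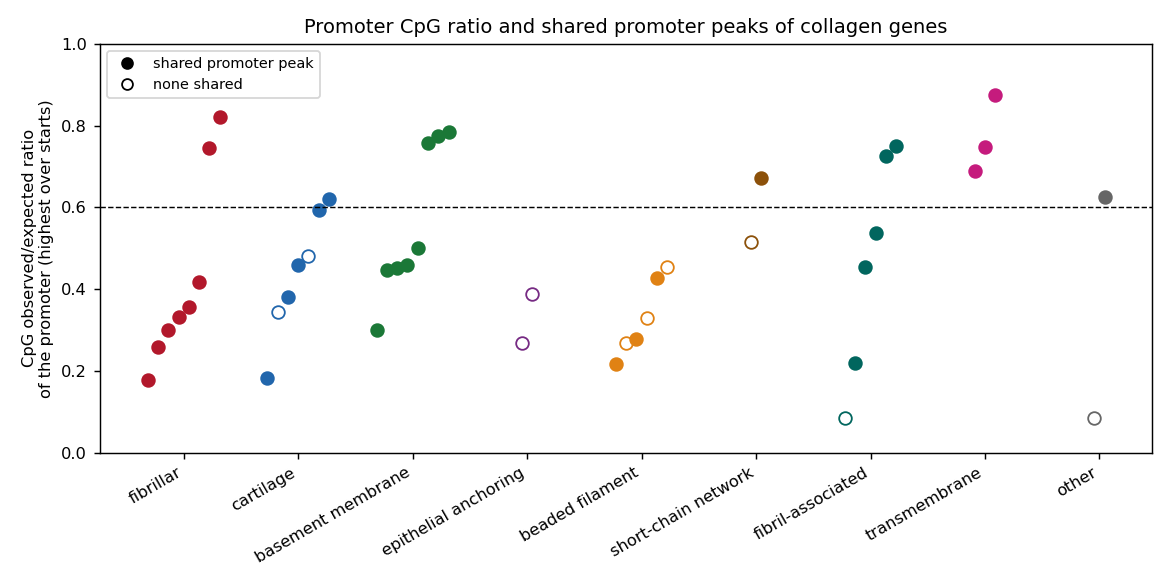
Points are collagen genes by class, the vertical axis is the CpG observed/expected ratio of the promoter at the start where it is highest, and filled points have a shared promoter peak. The dashed line marks 0.6, at or above which all 13 genes are filled, while 21 of the 31 below it are.

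Distal peaks were more frequent near collagen genes than the length of their surroundings predicts. The nearest-start rule counts a peak for a gene but does not show that the peak acts on it. The prediction shares the 62952 shared distal peaks out among genes by the number of bases nearest to their starts. Collagen genes had 271 shared distal peaks against 179 predicted, a ratio of 1.51. Ratios of this size were not particular to them. Of the marker lists, facial mesenchyme genes had 3.83, facial ectoderm 1.61, endothelial 1.58, chondrocyte and bone 1.48, erythroid 1.13 and liver genes 0.917. For collagen genes the libraries were also taken alone. In replicate 1 alone the ratio was 1.30 (642 peaks against 494), and in replicate 2 alone 1.42 (729 against 512), which gives 1.36 ± 0.0871 (SD, n = 2).

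At least 1 shared distal peak was found at 40 of the 44 collagen genes, against 62.8% of all genes. The 4 without were Col9a3, Col10a1, Col11a2 and Col4a6. More shared distal peaks than predicted were found at 29 collagen genes (65.9%), against 44.6% of all genes. Shared distal peaks numbered 10 or more at 9 collagen genes, against 7.41% of all genes, and the median number was 5 against 1. This median and the counts of genes with at least 1 and with 10 or more are not corrected for length. The count of genes above their prediction allows for length only in part, because genes with short intervals are predicted few peaks and fall below with none. The median interval was 137 kb for collagen genes and 47.0 kb for all genes.

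Of the 271 peaks, 129 lay in an intron and 4 in an exon of the gene itself, 106 upstream and 14 downstream of it between genes, and 18 inside another gene. Their median distance from the start was 33.0 kb, against 30.7 kb over all shared distal peaks. Their median strengths of 29 and 66 were close to the 28 and 63 of all shared distal peaks. Of the distal peaks of collagen genes, 42.2% of 642 in replicate 1 and 36.8% of 729 in replicate 2 were matched in the other library. Over all distal peaks these shares were 36.3% and 34.2%. The unmatched ones were weaker, with medians of 8 and 34 against 29 and 67 for the matched ones.

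**Figure D3:**
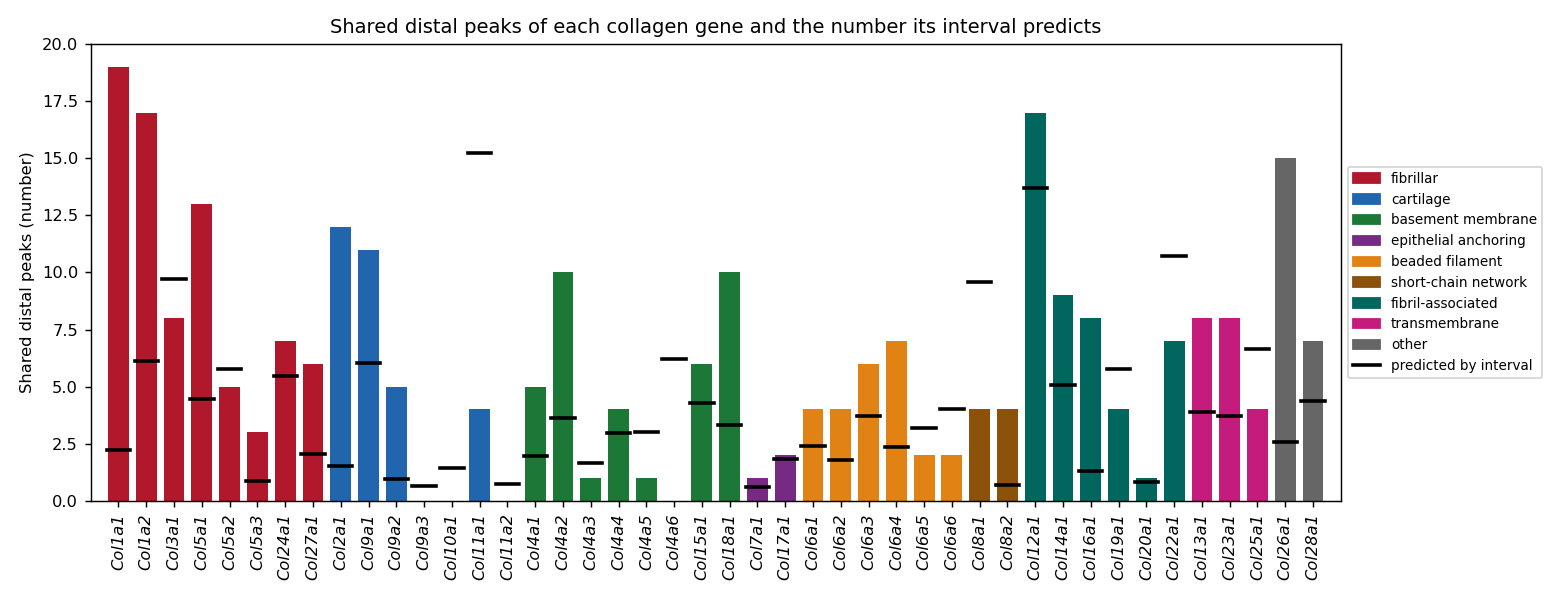
Bars give the number of shared distal peaks of each collagen gene, coloured by class, and black lines give the number predicted from the gene's interval. Col1a1 with 19 against 2.21 stands farthest above its line, and Col11a1 with 4 against 15.2 lies farthest below.

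Among the classes, fibrillar genes had 78 shared distal peaks against 36.7 predicted, a ratio of 2.12. Basement membrane genes had 37 against 27.0, a ratio of 1.37, and cartilage genes had 32 against 26.6, a ratio of 1.20. The fibrillar ratio was above 1 in each library taken alone, at 1.59 and 1.71. The basement membrane ratio was 0.913 in replicate 1 and 1.26 in replicate 2, and the cartilage ratio was 1.57 and 0.922, so that each lay on opposite sides of 1 in the libraries. The median number of shared distal peaks was 7.5 at fibrillar, 4 at cartilage and 4.5 at basement membrane genes. The contrast depends on how genes are classed, because collagens II and XI also form fibrils but were placed in the cartilage class. With Col2a1, Col11a1 and Col11a2 added, the fibrillar class had 11 genes and 94 shared distal peaks against 54.2 predicted. Its ratio was then 1.73 and its median 7.

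The cartilage value rested on single genes. Col11a1 had 63 distal peaks in replicate 1 and 12 in replicate 2, of which 4 were shared, against 15.2 predicted. Its replicate 1 peaks from 144131 to 435211 bp past the start were all unmatched, at strengths of 1 to 8 against a library median of 16. Without Col11a1, the cartilage class had 28 shared distal peaks against 11.3, a ratio of 2.47, with 1.66 and 1.79 in the libraries alone. In the other direction, Col2a1 supplied 12 of the 32 shared distal peaks of the whole class, against 1.53 predicted. The fibrillar value in turn rested in large part on Col1a1 and Col1a2. These genes together had 36 shared distal peaks against 8.35, a ratio of 4.31, and the other 6 fibrillar genes had 42 against 28.4, a ratio of 1.48.

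**Figure D4:**
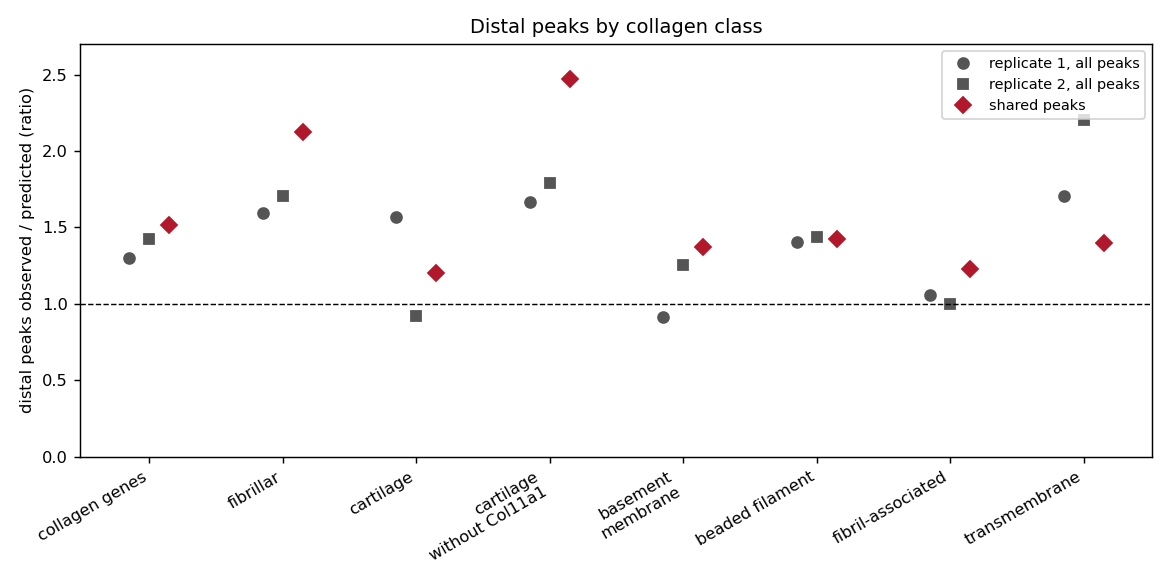
The vertical axis is the ratio of distal peaks observed to those predicted from interval size, with grey symbols for each library alone and red diamonds for shared peaks, and the dashed line marks 1. The grey symbols of the cartilage class lie on either side of that line at 1.57 and 0.922, and without Col11a1 both lie above it at 1.66 and 1.79. The fibrillar class is drawn only with all its genes, and without Col1a1 and Col1a2 its shared ratio was 1.48.

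Col1a1 had 30 distal peaks in replicate 1 and 32 in replicate 2, and its 19 shared ones compare with 2.21 predicted. Of these, 17 lay upstream and 2 in its own introns. The farthest lay 69853 bp upstream, and the strongest by mean percentile lay 7193 bp upstream at 81 and 139. That peak exceeded the promoter peaks of the gene in both libraries. Other strong ones lay 69473 bp (78 and 95) and 54173 bp (68 and 113) upstream and 3247 bp downstream of the start (63 and 102). The strongest is printed from the plus strand of mm10, chr11:94928956-94929105, with GGGCGG matches (as CCGCCC) in capitals.
Col1a1 upstream peak: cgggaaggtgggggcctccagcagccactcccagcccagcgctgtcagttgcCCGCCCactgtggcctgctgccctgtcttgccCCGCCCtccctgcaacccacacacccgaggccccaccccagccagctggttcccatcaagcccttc

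Col1a2 had 36 and 35 distal peaks and 17 shared against 6.14 predicted. Of the shared ones 14 lay upstream, 1 in an intron and 2 downstream of the gene. The upstream ones formed groups between 88142 and 97562 bp, between 47702 and 49742 bp and between 15422 and 21722 bp from the start. Col1a2 is known to have an enhancer far upstream of its start. Whether any peak here is that enhancer was not tested. By mean percentile and in replicate 1, the strongest Col1a2 distal peak lay 47702 bp upstream, at 71 and 111. The strongest in replicate 2, 15962 bp upstream, had strengths of 52 and 122 and is shown because it lies in the nearest of these groups. It is printed from the plus strand of mm10, chr6:4489456-4489605, with CCAAT (as ATTGG) and ACAAAG (as CTTTGT), a core of the sites of SOX factors, in capitals.
Col1a2 upstream peak: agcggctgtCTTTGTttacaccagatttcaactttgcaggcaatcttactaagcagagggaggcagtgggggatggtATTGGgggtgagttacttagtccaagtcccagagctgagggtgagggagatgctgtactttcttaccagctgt

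Col5a1 had 13 shared distal peaks against 4.47, of which 10 lay in its own body. Col3a1 had 8 against 9.73, and 4 of these lay in its first intron. The other fibrillar genes had 5 against 5.78 at Col5a2, 3 against 0.862 at Col5a3, 7 against 5.47 at Col24a1 and 6 against 2.06 at Col27a1. Col3a1 and Col5a2 were thus the fibrillar genes below their prediction.

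Col2a1 had 30 distal peaks in replicate 1 and 20 in replicate 2, and 12 shared against 1.53 predicted. Of these 7 lay in its own introns and 5 upstream. The 5 strongest intron peaks had strengths of 74 and 112 (1366 bp from the start), 59 and 113 (2126 bp), 48 and 99 (3246 bp), 67 and 128 (11586 bp) and 70 and 118 (14306 bp). The first 3 of these lie in the first intron, which begins 286 bp and ends 4089 bp from the first annotated start. That intron is known to hold an enhancer bound by SOX9, the master factor of cartilage. Whether any of these peaks is that enhancer was not tested. The 5 upstream peaks were weaker, from 14 to 27 in replicate 1 and from 47 to 62 in replicate 2.

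For each gene and library, the hotspot with the highest of the authors' −log10 q values was taken among those reaching within 1 kb of a start. Where these tied, the widest was taken. That of Col2a1 spanned 4403 bp in replicate 1 and 4196 bp in replicate 2, the widest of those so taken for the collagen genes in both libraries. The median hotspot of the libraries was 201 and 240 bp wide, and that of Col2a1 stood at the percentiles 99.94 and 99.96 of width. Col12a1 came next in width in both libraries, at 3550 and 3815 bp. The authors' −log10 q of the promoter hotspot, which has a ceiling of 100, was 100 in both libraries at Col2a1 and at Col1a1. The ceiling was also reached in both libraries at every other fibrillar gene and at further genes such as Col4a6, so it does not set Col2a1 apart. At Col11a2 the value was 2.50 and 4.96, and at Col9a2 1.93 and 5.52.

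Printed below are the first-intron peak of Col2a1 2126 bp from the start and its intron peak 11586 bp from the start, the highest by mean percentile and in replicate 2 but not in replicate 1. The first holds ACAAAG (as CTTTGT) and CCAAT (as ATTGG), and the second holds CCAAT 2 times and GGGCGG, all in capitals. In the second, a stretch of 15 bases recurs 39 bases farther on. Both are written in the direction of the gene, from the minus strand of mm10, at chr15:98002456-98002605 and chr15:97992996-97993145.
Col2a1 first-intron peak: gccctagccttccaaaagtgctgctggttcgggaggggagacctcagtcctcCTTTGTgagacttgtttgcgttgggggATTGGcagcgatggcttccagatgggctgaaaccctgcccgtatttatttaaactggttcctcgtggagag
Col2a1 farther intron peak: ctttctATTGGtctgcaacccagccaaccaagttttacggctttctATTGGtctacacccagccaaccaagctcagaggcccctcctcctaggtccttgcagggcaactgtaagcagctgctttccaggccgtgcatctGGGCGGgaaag

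Col9a1 had 11 shared distal peaks against 6.03. Of these 4 lay in its own introns, 2 upstream, the stronger at 44 and 81, and 5 inside the neighbouring gene Col19a1. One intron peak, at 27 and 62, lay 2461 bp past the upstream start that itself had no promoter peak. Col9a2, without a shared promoter peak, had 5 shared distal peaks against 0.968, among them a pair in its introns at 53 and 90 and at 38 and 73. Col9a3, Col10a1 and Col11a2 had none, against predictions of 0.644, 1.45 and 0.719.

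**Figure D5:**
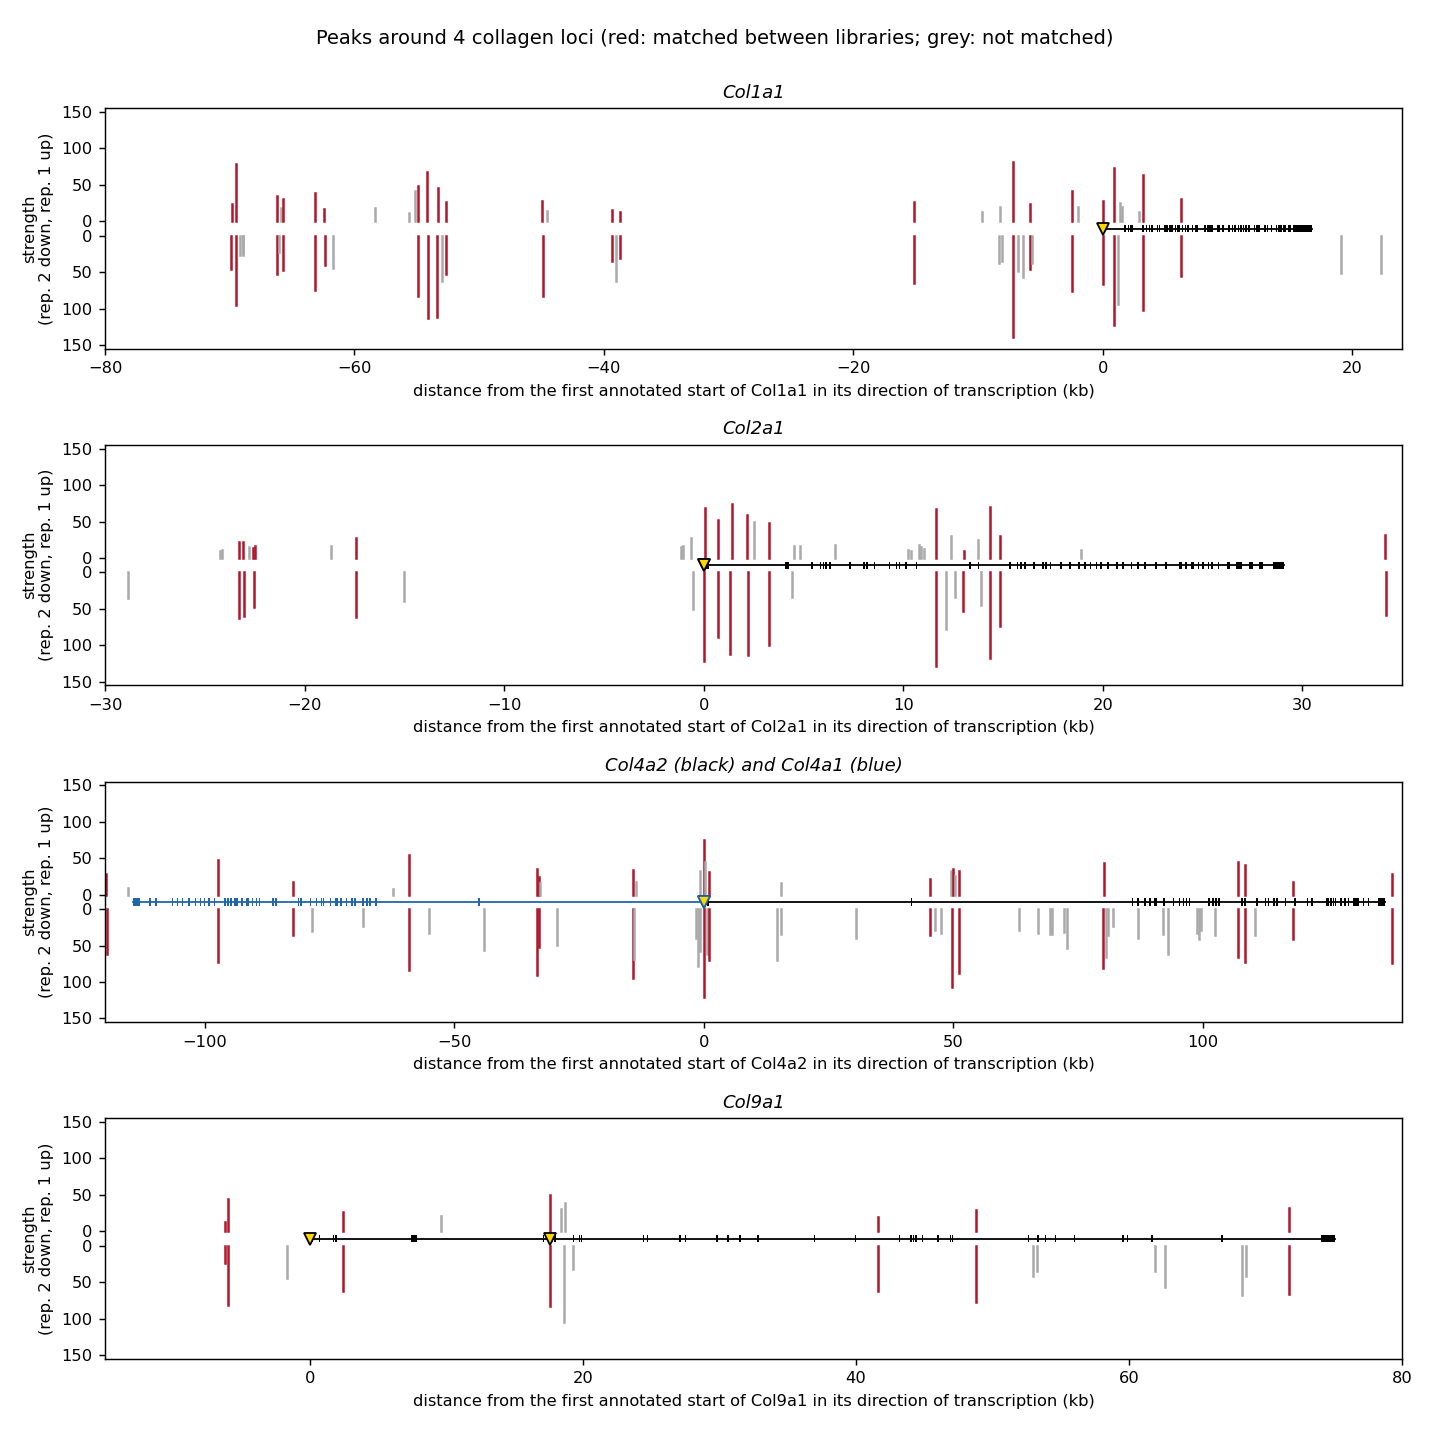
Vertical lines are peaks of replicate 1 (up) and replicate 2 (down) with their strength as height, red where matched between the libraries and grey where not, boxes are exons, triangles are annotated starts, and the horizontal axis is the distance from the first start in kb. Red lines extend almost 70 kb upstream of Col1a1, cluster in the introns of Col2a1, and at Col9a1 stand at the downstream start but not at the upstream one.

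In the basement membrane class, the peaks of a head-to-head pair are best read together, because a peak inside one gene can be nearest to the start of the other. All 5 distal peaks counted for Col4a1 lay inside Col4a2, and 6 of the 10 counted for Col4a2 lay inside Col4a1. Together Col4a1 and Col4a2 had 15 shared distal peaks against 5.62, with 25 in replicate 1 and 41 in replicate 2. Col4a3 and Col4a4 had 5 against 4.61. Col4a5 and Col4a6 had 1 against 9.20, with 3 in each library alone.

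Col18a1 had 10 shared distal peaks against 3.33, of which 7 lay in its introns. By mean percentile the strongest of the class, at 76 and 104, lay in the Col18a1 intron between the upstream and the downstream starts, 16825 bp before the nearest of the latter. Others in the Col18a1 introns reached 62 and 85 and 58 and 107, the latter higher in replicate 2. Col15a1 had 6 shared distal peaks against 4.26. The Col18a1 peak at 76 and 104 is printed from the minus strand of mm10, chr10:77130696-77130845. Capitals mark TGTGGT (as ACCACA), the core of the sites of RUNX factors, and ACAAAG, which overlap, and a stretch of 15 bases in it recurs 34 bases farther on.
Col18a1 intron peak: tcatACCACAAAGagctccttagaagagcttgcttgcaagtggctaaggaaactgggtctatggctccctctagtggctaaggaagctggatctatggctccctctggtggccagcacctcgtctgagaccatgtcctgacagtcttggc

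In the remaining classes, Col12a1 had the highest number, 17 against 13.7, of which 8 lay downstream of the gene. Col26a1, which lies apart from the main collagen families in structure, had 15 against 2.56, with 12 in its introns. The strongest were at 84 and 116 (1550 bp from the start), 80 and 118 (92090 bp) and 73 and 122 (18930 bp), all higher than its own strongest shared promoter peak. Col14a1 had 9 against 5.07 and Col16a1 8 against 1.32. Col13a1 and Col23a1 each had 8, against 3.91 and 3.72. Col22a1 and Col28a1 each had 7, against 10.7 and 4.35, and all 7 of Col28a1 lay in its body although its start had no promoter peak.

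Among the collagen VI genes, Col6a4 had 7 against 2.36 and Col6a3 had 6 against 3.73. Col6a1 and Col6a2 each had 4, against 2.42 and 1.80, and Col6a5 and Col6a6 each had 2, against 3.21 and 4.01. Col6a6 had 28 distal peaks in replicate 1 and 14 in replicate 2, with 2 shared. Col8a1 and Col8a2 each had 4, against 9.58 and 0.710. Col19a1 and Col25a1 each had 4, against 5.78 and 6.65. Col17a1 had 2 against 1.81, Col7a1 had 1 against 0.592 and Col20a1 had 1 against 0.813.

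Motif letters in the 271 distal peaks were set beside those in all 62952 shared distal peaks. TGANTCA was in 21 (7.75%) against 4.40% of all, and in 4 of 78 fibrillar, 0 of 32 cartilage and 2 of 37 basement membrane peaks. GGAATG was in 40 (14.8%) against 10.5%, and TGTGGT in 38 (14.0%) against 11.4%. ACAAAG was in 32 (11.8%) against 13.3%, and ACAATG, another SOX core, in 16 (5.90%) against 7.04%. In the cartilage class, ACAAAG was in 4 of 32 and ACAATG in 3 of 32.

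The genes that process collagen chains were described in the same way. Enzymes that modify proline and lysine, such as P4ha1 and Plod2, included 14 of 15 genes with a shared promoter peak, and Colgalt2 was the exception. Folding and secretion genes, such as Serpinh1, the collagen chaperone, had one at 9 of 9. Genes of propeptide cleavage and cross-linking had one at 11 of 13. Adamts14 had unmatched peaks, and Loxl2 had no promoter peak in either library. Collagen receptors had one at 6 of 7, with unmatched peaks at Itga1.

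Together 40 of these 44 processing and receptor genes (90.9%) had a shared promoter peak, against 64.2% of all genes. Their strongest promoter peaks had a median strength of 68 and 112, between the collagen genes at 51 and 89 and all genes at 85 and 121. Of these genes 30 had a CpG ratio of at least 0.6, against 13 of the 44 collagen genes. Among all genes at or above 0.6, 95.8% had a shared promoter peak, and among those below it 31.3% did. The share of 64.2% is therefore not one for genes of like CpG ratio. All 15 enzymes that modify proline and lysine were at or above 0.6, and their 14 of 15 did not exceed the 95.8%. Their shared distal peaks numbered 195 against 144 predicted, a ratio of 1.35, against 1.51 for the collagen genes. Serpinh1 had 8 against 1.35 and Sparc, a collagen-binding matrix protein, had 7 against 1.53.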

How the data were processed

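Per the files' notes, the authors called peaks and hotspots on each library alone, on build mm10. The aligner and the caller were not given in the sources used here. The deposited peak files give a score per 150 bp peak (column 7, here strength), and the deposited hotspot files give a −log10 q value (column 9, from 1.30 to a ceiling of 100). No read totals were used, so depth is unknown. Starts came from GENCODE M21 basic protein-coding transcripts of genes on chromosomes 1 to 19 and X (41135 distinct starts), and sequence from the RefSeq copy of GRCm38.p6. Peaks were matched at 75 bp or more, assigned within 1 kb or to the nearest start, and counted with Python 3.11.15, numpy 2.4.6 and pysam 0.24.0. On simulated peaks matching and assignment were right in 100% of cases. Every collagen gene is named. Printed sequences were the strongest shared promoter and distal peak of the fibrillar, cartilage and basement membrane classes and the weaker head-to-head pair; 4 more were added after their values were seen, and first-exon sequence was shortened to 30 bases or less. The CpG threshold of 0.6 was also chosen with values known. The members, classes and lists were chosen with earlier results of these data known. No test was run.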

Additional observations from a re-analysis of the deposited data

How the results depend on the processing

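Of 76 values recomputed for the 8 counts and medians, 53 moved by less than 1.5 times or, for medians, less than the SD between the libraries. That SD was taken over the medians of each library alone, with unmatched peaks counted. It was 6.01 at fibrillar, 0.707 at cartilage and 2.12 at basement membrane genes. Falls of the fibrillar median from 7.5 to 2 and to 1.5 therefore count among the 53. Requiring 90% of the peak to overlap gave 11 collagen genes with a shared promoter peak, 2 fibrillar, 2 cartilage and 1 basement membrane. It gave 90 shared distal peaks and medians of 2 at fibrillar, 0 at cartilage and 1.5 at basement membrane genes. Keeping the 50000 strongest peaks per library gave 3 cartilage and 4 basement membrane genes with a shared promoter peak, and 95 shared distal peaks. The medians were then 1.5 at fibrillar, 0 at cartilage and 2 at basement membrane genes, so that the fibrillar median was no longer the highest. An overlap of at least 1 bp gave a cartilage median of 5, and promoter windows of 500 and 2500 bp gave 5 and 2. Leaving out a library removed the matching, and distal peaks of collagen genes then numbered 642 to 729, with medians of 17.5 to 26 at fibrillar, 8 to 9 at cartilage and 8 to 11 at basement membrane genes. Collagen genes with a promoter peak then numbered 36 to 40. The ratio of distal peaks to those predicted stayed above 1 in the 7 alternatives for which it was computed, from 1.30 to 1.61. It was not computed for hotspots, all transcripts or the 100 kb limit. No paired analysis was possible because there is 1 group. What depth limits is unknown, since no read totals were used; the causes of these moves beyond fewer matched peaks were not tested.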
